A study of Mus musculus with 24 samples.

Results

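The 10 genes described here encode the ID proteins (Id1, Id2, Id3 and Id4) and ligands and feedback inhibitors of the BMP and TGF-beta pathways (Bmp4, Tgfb1, Smad6, Smad7, Bambi and Skil). They were chosen by symbol, through the mouse GRCm38 annotation, from the 55487 genes of the table. All 10 were found, and 8 were among the 14541 genes tested, which had 10 or more normalized counts in 6 or more of the 24 libraries. Id4 and Bambi did not reach that level. The libraries hold mRNA of C2C12 myotubes, multinucleated muscle cells formed in culture from a mouse myoblast line of wild-type genotype, labelled as day 5 and differentiated under 5 % O2 in all groups. Cultures of 5 % CTRL spent 2 h under 5 % O2 and those of 1 % CTRL spent 2 h under 1 % O2, both without stimulation. Cultures of 5 % STIM and 1 % STIM had the same gas for 2 h and were then electrically stimulated in short bouts that make myotubes contract. Each group had 6 libraries from separate cultures of this line, and a normalized count is the read count of a gene divided by the size factor of its library. Per the study's methods the medium of stimulated cultures was replaced before and after stimulation, and whether unstimulated cultures had the same changes and the same harvest time is not given in the sources used here.

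ID proteins carry a helix-loop-helix domain without the basic stretch that binds DNA. They pair with E proteins, the partners that MyoD and its relatives need, and so keep those factors off E-boxes. They are known for holding myoblasts in an undifferentiated state, and their genes are classic targets of BMP signals through SMAD1 and SMAD5. SMAD6 and SMAD7 block the receptors of these pathways from inside the cell, BAMBI is a decoy receptor at the membrane, and SKIL (SnoN) represses SMAD complexes in the nucleus. Signals of the pathway induce most of these inhibitors, so their mRNA is used as a readout of feedback.

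Libraries held 26541858 to 28173745 reads, so a normalized count of 10 rests on about 10 reads. Replicate 1 of 1 % CTRL stood apart. Its genes lay a median of 0.10 (log2) from the median of its group, against 0.03 to 0.06 in the other 23 libraries, and it was the lowest library of its group in 6 of the 8 tested members. Results that rest on it are given with and without it. Of 14 myotube markers, all were tested, and their summed level was 636301 to 691568 normalized counts in 5 % CTRL, 587580 to 632717 in 1 % CTRL, 574133 to 654499 in 5 % STIM and 575724 to 632797 in 1 % STIM. Under 1 % O2 8 of them were lower and 1 higher at rest, against 30.5 and 29.4 % of all genes, with a median of -0.13 (log2). After stimulation 9 were lower and 1 higher, against 28.4 and 29.0 %, with a median of -0.11. The 5 hypoxia genes used to check the labels summed to 15174 to 16213 in 5 % CTRL, 40872 to 43221 in 1 % CTRL, 15431 to 16353 in 5 % STIM and 26820 to 29135 in 1 % STIM, and all 5 were lower in 1 % STIM than in 1 % CTRL. Of 5 activity genes, Nr4a1 had means of 302 in 5 % CTRL and 730 in 5 % STIM, with 739 in 1 % CTRL and 1702 in 1 % STIM, while Fos, Egr1 and Fosb passed the test of stimulation at neither O2 level. Arc, the other of the 5, fell with stimulation, from 308 to 202 at 5 % O2 and from 66.9 to 35.0 at 1 % O2.

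Per kb of exon, the level in 5 % CTRL was highest for Skil, with 426 normalized counts per kb, followed by Id2 with 272, Tgfb1 with 186 and Bmp4 with 115. Smad7 had 80.8, Id1 68.3, Id3 39.5 and Smad6 12.1 normalized counts per kb, and Bambi and Id4 had 0.743 and 0.665. Id2 was thus the most abundant ID mRNA per kb in these myotubes. In 1 % STIM its level per kb was 111, below Bmp4 at 132 and Tgfb1 at 124, and Id1 and Id3 were at 13.2 and 12.5.

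The ID genes are close relatives, so their most alike coding stretch is shown to see how far reads could be shared between them. The 120 bases below are part of the coding sequence of each gene, from the GENCODE M21 transcripts Id1-201, Id2-201, Id3-201 and Id4-201, and capitals mark the 69 bases that are the same in all 4.
Id1: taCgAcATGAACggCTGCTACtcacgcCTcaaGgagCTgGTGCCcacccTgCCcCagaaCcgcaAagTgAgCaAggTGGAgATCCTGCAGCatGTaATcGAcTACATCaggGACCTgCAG
Id2: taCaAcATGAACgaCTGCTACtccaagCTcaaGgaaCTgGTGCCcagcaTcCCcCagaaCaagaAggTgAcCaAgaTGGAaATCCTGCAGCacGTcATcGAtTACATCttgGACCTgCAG
Id3: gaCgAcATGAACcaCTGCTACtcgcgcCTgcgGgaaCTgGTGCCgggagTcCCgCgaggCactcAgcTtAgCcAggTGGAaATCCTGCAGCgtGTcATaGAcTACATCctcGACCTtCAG
Id4: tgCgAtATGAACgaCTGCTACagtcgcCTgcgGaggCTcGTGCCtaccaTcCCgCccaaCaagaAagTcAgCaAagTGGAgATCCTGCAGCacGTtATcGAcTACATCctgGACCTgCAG
Identity within this stretch was 70.8 to 81.7 % between pairs, and the longest run that any pair shared was 17 bases, for Id1 and Id4. No word of 75 bases in the exons of Id1, Id2 or Id3 occurred in another gene. In Id4 and Bmp4 0.954 % and 0.668 % of such words were shared with genes on the opposite strand, Gm49291 and Gm15217. The stated default parameters of the counting do not use strand, so within those overlaps the members and their antisense partners cannot be told apart.

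In GRCm38, Id1 lies at chr2:152736251-152737410 (plus strand), Id2 at chr12:25093799-25097140 (minus), Id3 at chr4:136143497-136145755 (plus) and Id4 at chr13:48261228-48266026 (plus). Smad6 lies at chr9:63953076-64022059 (minus), Bmp4 at chr14:46383520-46390669 (minus), Skil at chr3:31095058-31122577 (plus) and Tgfb1 at chr7:25687002-25705077 (plus), while Smad7 and Bambi are on chromosome 18. All are protein-coding.

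The first comparison asks what 2 h of 1 % O2 did at rest. In 1 % CTRL against 5 % CTRL, 7 of the 8 tested members passed the test, 2 higher (Smad6, Bmp4) and 5 lower (Id1, Id3, Smad7, Skil, Tgfb1), and Id2 did not pass. Over all 14541 genes 59.9 % passed, 29.4 % higher and 30.5 % lower, so most genes moved in this comparison. The groups did not overlap in 4 members, against 38.2 % of all genes. With libraries rescaled to the same total, the share of calls that are higher moved from 49.0 to 62.7 % over all genes, and the members kept 2 higher and 5 lower. The median log2 difference of the 8 members was -0.34, and that of all genes was 0.00. Without replicate 1 of 1 % CTRL, 6 members passed, 2 higher and 4 lower, with Id1 as the member lost. In bulk RNA fewer cells of a type and less RNA per cell cannot be told apart.

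The second comparison asks the same in stimulated myotubes. In 1 % STIM against 5 % STIM, 7 members passed, 1 higher (Bmp4) and 6 lower (Id1, Id2, Id3, Smad7, Skil, Tgfb1), and Smad6 did not pass. Of all genes 57.4 % passed, 29.0 % higher and 28.4 % lower. Groups did not overlap in 6 members, against 37.3 % of all genes. Rescaling to the same total moved the share of calls that are higher from 50.4 to 63.2 % and left the members at 1 higher and 6 lower. The median over the members was -0.63, against 0.00 over all genes.

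For stimulation under 5 % O2, 3 members passed, 2 higher (Smad7, Skil) and 1 lower (Id2). Here 21.4 % of all genes passed, 9.44 % higher and 12.0 % lower, and the groups did not overlap in those same 3 members, against 11.1 % of all genes. This count depended on the fit. It was 6, with Id1 and Id3 lower and Tgfb1 higher in addition, when 5 % STIM and 5 % CTRL were fitted alone or when replicate 1 of 1 % CTRL, which enters only through the shared spread, was left out. Under 1 % O2, 3 members passed, all lower (Id1, Id2, Smad7), where 22.3 % of all genes passed, 11.5 % higher and 10.8 % lower. Without replicate 1 of 1 % CTRL it was 5, with Id3 lower and Skil higher in addition. Groups at 1 % O2 did not overlap in 1 member, Id2, against 11.2 % of all genes. With the same total, the share of calls that are higher moved from 44.0 to 62.1 % at 5 % O2 and from 51.4 to 62.4 % at 1 % O2. The members were then 3 higher (Tgfb1 in addition) and 1 lower at 5 % O2, and 1 higher (Skil) and 2 lower at 1 % O2. Comparisons that use the same control libraries are not independent of each other.

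Whether the response to stimulation differed between the O2 levels was tested as an interaction, the log2 difference at 1 % O2 minus that at 5 % O2. It passed for 2 of the 8 members, Id2 and Smad7, both lower. Of all genes 11.3 % passed, 5.88 % higher and 5.43 % lower.

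**Figure D1:**
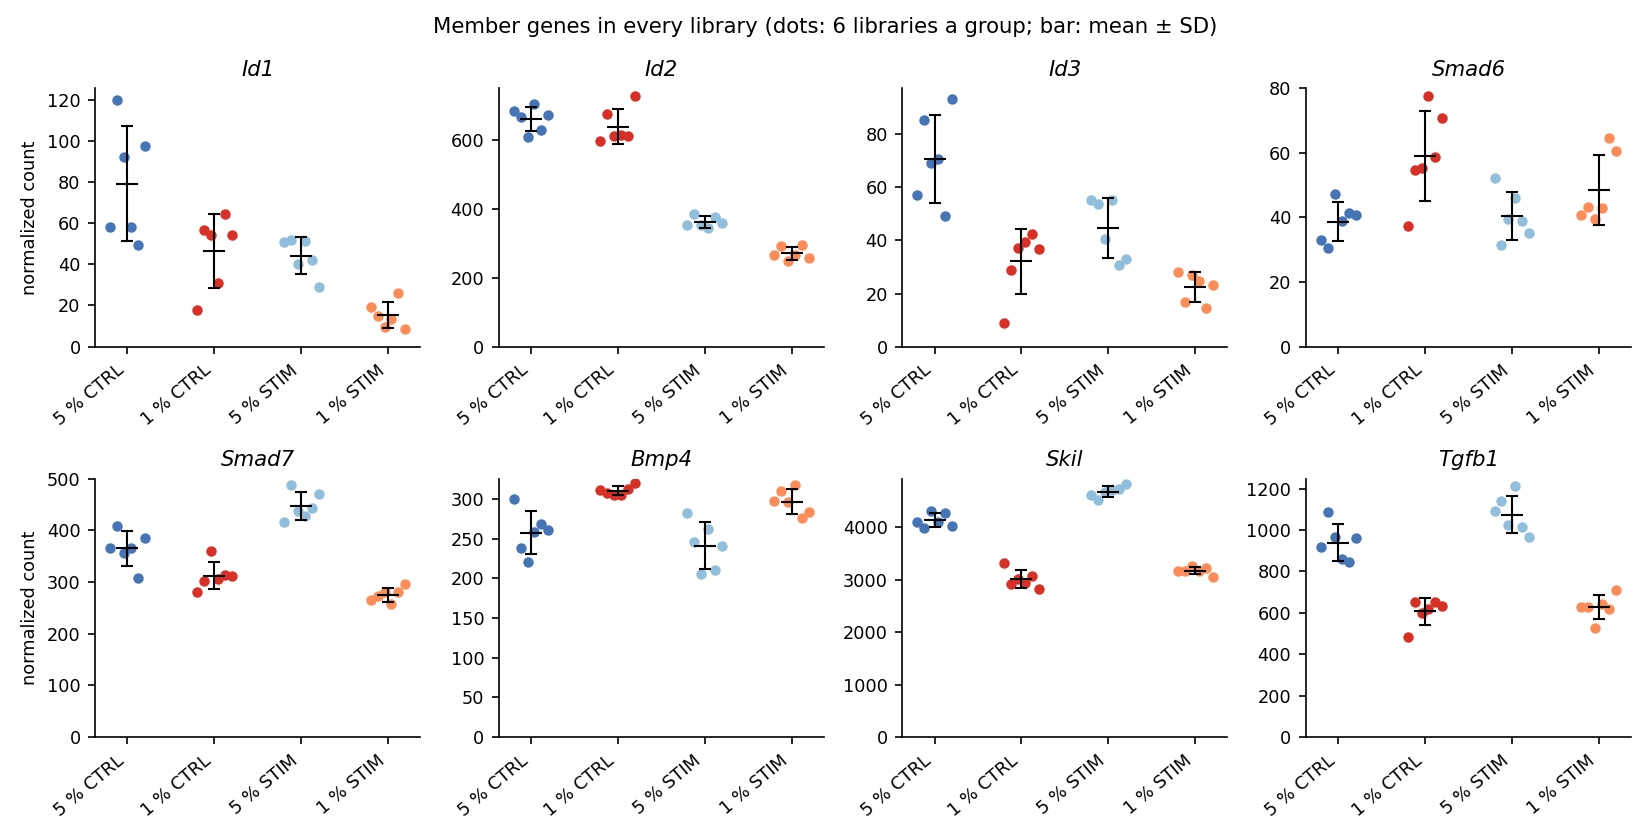
Normalized counts (vertical axes, linear from 0) of the 8 tested members in each of the 24 libraries, by group. Dots are libraries in the order of their replicate numbers and bars the mean ± SD of 6. Id2 separates stimulated from unstimulated cultures, Skil and Tgfb1 separate 1 % from 5 % O2, and Smad7 is highest in 5 % STIM and lowest in 1 % STIM by mean.

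Id2, the ID gene with the highest level per kb, responded to stimulation. Its normalized counts (lowest, median and highest of 6) were 609.7, 671 and 705 in 5 % CTRL and 598, 613 and 728 in 1 % CTRL. They were 344, 357 and 387 in 5 % STIM and 248, 267 and 295 in 1 % STIM. All 12 stimulated libraries were below all unstimulated ones, and every library of 1 % STIM was below every library of 5 % STIM. Stimulation lowered Id2 by 0.86 ± 0.05 (log2, SE) under 5 % O2 (limma adjusted p = 1.67e-14), from a mean of 662 ± 35.7 to 363 ± 16.3 (SD, n = 6). Under 1 % O2 the difference was -1.24 ± 0.05 (adjusted p = 1.28e-18), from 640 ± 51.4 to 271 ± 18.8. That is a fold of 1.82 at 5 % O2 and 2.36 at 1 % O2. The response was larger under 1 % O2, by 0.37 ± 0.08 (log2, SE, adjusted p = 0.00111). Without stimulation, 1 % and 5 % O2 differed by -0.05 (95 % interval -0.16 to 0.06), which did not pass and was 0.031 with libraries rescaled to the same total. With stimulation the difference was -0.42 ± 0.05 (adjusted p = 4.49e-08). Of the 14541 genes, 274 had a difference at least as large in size as Id2 under stimulation at 5 % O2, and 98 under stimulation at 1 % O2.

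Id1, which is known as an early target of BMP signals, was lowest where both treatments met. It had 49.4, 75.3 and 120.0 normalized counts in 5 % CTRL, 17.7, 54.3 and 64.4 in 1 % CTRL, 28.9, 46.5 and 51.7 in 5 % STIM and 8.77, 14.0 and 26.0 in 1 % STIM. All libraries of 1 % STIM were below all of 5 % STIM, while they overlapped with 1 % CTRL only through replicate 1 of that group, at 17.7. In order of their means the groups stood at 79.2 ± 28.1 (5 % CTRL), 46.3 ± 18.0 (1 % CTRL), 44.2 ± 9.004 (5 % STIM) and 15.3 ± 6.49 (1 % STIM, SD, n = 6). The libraries of 5 % CTRL, 1 % CTRL and 5 % STIM overlapped with each other. Id1 was lower in 1 % CTRL than in 5 % CTRL by 0.81 ± 0.29 (log2, SE, limma adjusted p = 0.0212). Without replicate 1 of 1 % CTRL the difference was -0.56 and no longer passed (adjusted p = 0.0580), nor did it with 1 % CTRL and 5 % CTRL fitted alone (adjusted p = 0.0579). In 1 % STIM it was lower than in 5 % STIM by 1.53 ± 0.29 (adjusted p = 8.82e-05) and lower than in 1 % CTRL by 1.51 ± 0.29 (adjusted p = 0.000413), or 2.84-fold. Stimulation under 5 % O2 gave -0.78 ± 0.29 (adjusted p = 0.0616), which did not pass here but did in 6 of the 9 other settings. The interaction was -0.73 (95 % interval -1.59 to 0.14) and did not pass. Over the 9 settings in which it was fitted it lay between -0.97 and -0.43. It passed in none of them, with adjusted p from 0.0615 to 0.44.

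Id3 was lower under 1 % O2. It had 49.4, 69.9 and 93.2 normalized counts in 5 % CTRL, 8.85, 37.0 and 42.3 in 1 % CTRL, 30.7, 47.1 and 55.2 in 5 % STIM and 14.4, 24.1 and 28.3 in 1 % STIM. All libraries of 1 % O2 were below those of 5 % O2 with the same stimulation. The difference at rest was -1.22 ± 0.28 (log2, SE, limma adjusted p = 0.000468), a fold of 2.33 between means of 70.8 ± 16.5 and 32.2 ± 12.3 (SD, n = 6). It was -0.90 without replicate 1 of 1 % CTRL, whose 8.85 counts are the lowest of that group. After stimulation it was -0.96 ± 0.28 (adjusted p = 0.00438). Stimulation gave -0.66 at 5 % O2 (adjusted p = 0.0955) and -0.40 at 1 % O2 (adjusted p = 0.349). Neither passed, though the first did in 6 of the 9 other settings (adjusted p from 0.00591 to 0.145 over them) and without replicate 1 of 1 % CTRL the second was -0.72 (adjusted p = 0.00368). The interaction for Id3 was 0.26 (95 % interval -0.55 to 1.07) and turned to -0.062 without that library, passing in neither.

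Id4 was at the edge of detection, at 0 to 8.18 normalized counts, with 11 to 23 reads over the 6 libraries of a group. Bambi was at 0 to 9.59, with 22 to 32 reads a group. Both were below the filter, so differences between groups were not tested for either gene.

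Of the ligands, Tgfb1, the founding member of the TGF-beta family, was lower under 1 % O2. It had 846, 940.4 and 1086 normalized counts (lowest, median, highest) in 5 % CTRL, 481, 626 and 653 in 1 % CTRL, 966, 1057 and 1211 in 5 % STIM and 528, 628 and 709 in 1 % STIM. Every library of 1 % O2 was below every library of 5 % O2. At rest the difference was -0.63 ± 0.07 (log2, SE, limma adjusted p = 4.03e-08), from 939 ± 87.8 to 606 ± 64.7 (SD, n = 6), and after stimulation it was -0.78 ± 0.07 (adjusted p = 1.05e-09). Stimulation gave 0.19 ± 0.07 at 5 % O2 (adjusted p = 0.0668) and 0.05 ± 0.07 at 1 % O2 (adjusted p = 0.722), and passed at neither level. Replicate 1 of 1 % CTRL had the lowest Tgfb1 of its group, 481 against 600 to 653 in the other 5, and the sign of the difference at 1 % O2 turned without it, to -0.017.

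Bmp4, a ligand that acts through the receptors upstream of SMAD1 and SMAD5, moved the other way. It had 221, 259.7 and 299 normalized counts in 5 % CTRL, 305, 309 and 319.9 in 1 % CTRL, 205, 243 and 283 in 5 % STIM and 276, 296 and 318 in 1 % STIM. All libraries of 1 % CTRL were above all of 5 % CTRL, by a small margin, while those of 1 % STIM and 5 % STIM overlapped. The rise was 0.27 ± 0.07 (log2, SE, limma adjusted p = 0.00125) at rest, or 1.21-fold, and 0.31 ± 0.07 (adjusted p = 0.000402) after stimulation. Stimulation gave -0.10 (95 % interval -0.24 to 0.05) at 5 % O2 and -0.07 (-0.21 to 0.08) at 1 % O2.

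**Figure D2:**
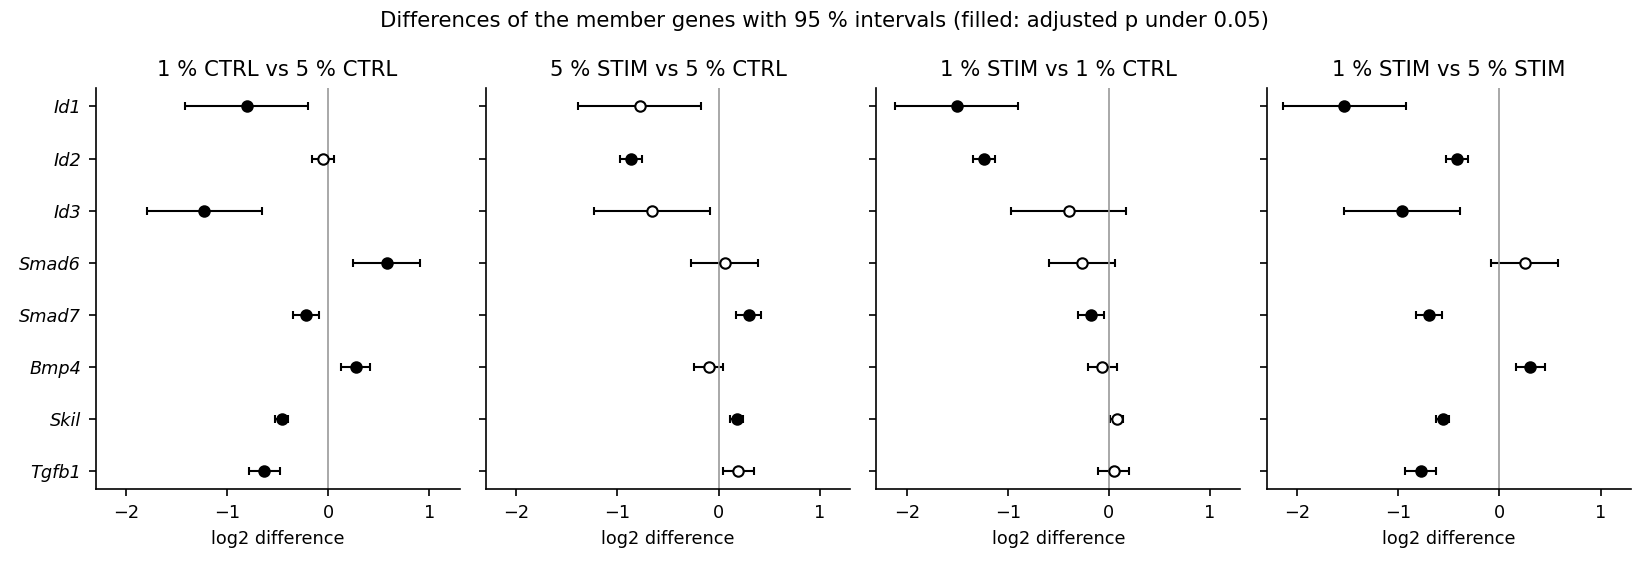
Log2 differences (horizontal axes) of the 8 tested members in 4 comparisons, with 95 % intervals, where filled dots passed an adjusted p under 0.05. Id1 and Id3 have the widest intervals, and Bmp4 alone passed as higher under 1 % O2 both at rest and after stimulation.

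Among the intracellular inhibitors, Smad7 moved in opposite directions with stimulation at the 2 O2 levels. Its normalized counts were 307, 366 and 409 in 5 % CTRL, 280.3, 309 and 361 in 1 % CTRL, 417, 441 and 489 in 5 % STIM and 257, 277 and 296 in 1 % STIM. All libraries of 5 % STIM were above all others, and those of 1 % STIM overlapped only with the lowest of 1 % CTRL, replicate 1 at 280.3. Stimulation raised Smad7 by 0.30 ± 0.06 (log2, SE, limma adjusted p = 0.000576) under 5 % O2, from 365 ± 34.0 to 448 ± 27.2 (SD, n = 6). Under 1 % O2 it lowered it by 0.18 ± 0.06 (adjusted p = 0.0369), from 313 ± 26.4 to 276 ± 13.5. This fall did not pass with the same total, without the filter, with the compared groups alone or with voom, where adjusted p reached 0.0736. The interaction, -0.47 ± 0.09 (adjusted p = 0.000317), passed in every setting tried, between -0.51 and -0.46. By O2, Smad7 was lower by 0.22 ± 0.06 at rest (adjusted p = 0.00271; with the same total -0.14, adjusted p = 0.0484) and by 0.70 ± 0.06 after stimulation (adjusted p = 1.55e-11).

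Skil had the highest level per kb of the 10 genes. It stood at 3986, 4099 and 4314 normalized counts in 5 % CTRL, 2828, 2971 and 3318 in 1 % CTRL, 4515, 4685 and 4822 in 5 % STIM and 3050.2, 3165 and 3259 in 1 % STIM. Every library of 1 % O2 was below every library of 5 % O2, and 5 % STIM was above 5 % CTRL without overlap. The difference between O2 levels was -0.46 ± 0.03 (log2, SE, limma adjusted p = 1.40e-14) at rest and -0.56 ± 0.03 (adjusted p = 8.63e-17) after stimulation. Stimulation raised it under 5 % O2 by 0.18 ± 0.03 (adjusted p = 5.45e-05), or 1.13-fold. Under 1 % O2 the value was 0.07 ± 0.03 (adjusted p = 0.0868), and 0.10 (adjusted p = 0.00576) without replicate 1 of 1 % CTRL, which had the highest Skil of its group. The interaction of -0.10 ± 0.04 did not pass (adjusted p = 0.138).

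Smad6, which acts mainly on BMP receptors, rose under 1 % O2 at rest. Its values were 30.5, 39.8 and 47.1 normalized counts in 5 % CTRL, 37.4, 56.9 and 77.7 in 1 % CTRL, 31.4, 39.1 and 52.1 in 5 % STIM and 39.5, 43.0 and 64.5 in 1 % STIM. In 1 % CTRL only replicate 1, at 37.4, lay within the range of 5 % CTRL. The rise was 0.58 ± 0.16 (log2, SE, limma adjusted p = 0.00252), or 1.49-fold, and 0.70 without that library. After stimulation the difference between O2 levels was 0.25 (95 % interval -0.08 to 0.58) and did not pass. Stimulation gave 0.06 (-0.27 to 0.39) at 5 % O2 and -0.27 (-0.60 to 0.06) at 1 % O2.

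**Figure D3:**
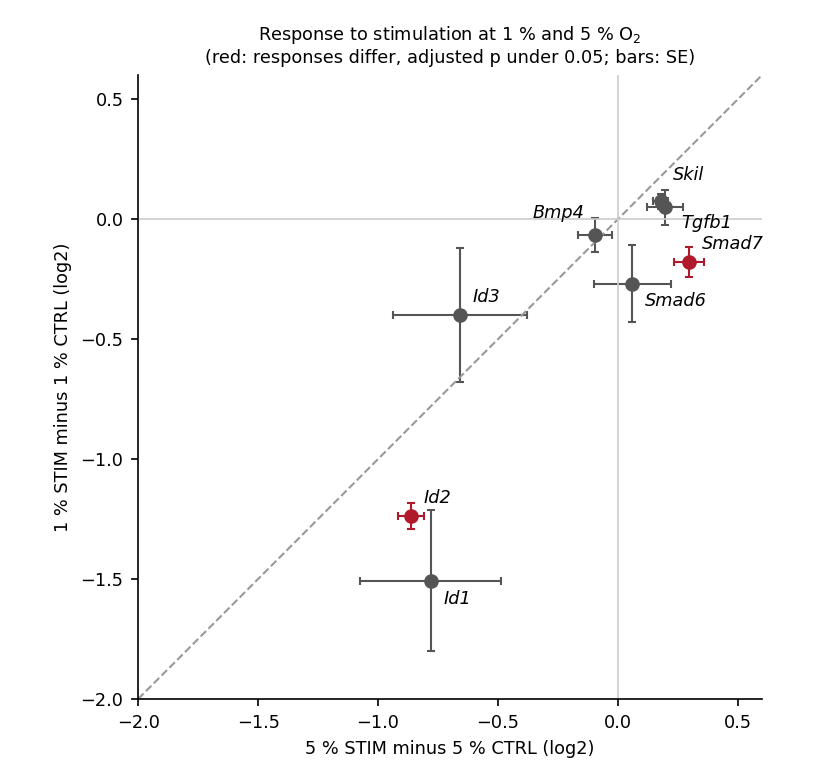
Response to stimulation under 1 % O2 (vertical axis, log2) against that under 5 % O2 (horizontal axis, log2) for the 8 tested members, with SE as bars and equal responses on the dashed line. Id2 and Smad7, in red, have responses that differ (-0.86 against -1.24 and 0.30 against -0.18), and Id1 lies farther from the line with wider bars.

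Markers of other cells were read beside these values. The summed level of 8 genes of dividing cells was 6175 to 6731 normalized counts in 5 % CTRL and 8411 to 11174 in 1 % CTRL. It was 6533 to 7564 in 5 % STIM and 7824 to 9502 in 1 % STIM. Of the 8, 6 rose and 1 fell at rest under 1 % O2, against 29.4 and 30.5 % of all genes. Mcm2 rose most, by 1.67 (log2). Ccnb1 fell by 0.50 (limma adjusted p = 1.06e-06), and Mki67 differed by -0.04 (adjusted p = 0.766). The 11174 belongs to replicate 1 of 1 % CTRL, and the other 5 libraries of that group reached 9649. For 7 markers of myoblasts and reserve cells, the undifferentiated cells that remain in such cultures, the ranges were 32987 to 35313, 32219 to 34090, 33639 to 35670 and 31494 to 33590 in the same order, with Pax3 under 10 in every library. Of the 6 tested, 3 rose and 1 fell under 1 % O2 at rest, against 29.4 and 30.5 % of all genes, with a median of 0.08 (log2). Pax7 and Myf5 rose by 0.69 and 0.63, Cd34 fell by 0.31, and Cdh15 and Ncam1 did not pass. The 5 fibroblast markers summed to 265522 to 310882, 221709 to 239713, 254636 to 283588 and 223687 to 237949, with Thy1 under 10 throughout. All 4 that were tested fell under 1 % O2 at rest, against 30.5 % of all genes. After stimulation 2 of the 4 were lower, against 28.4 %. Of 5 osteoblast markers only Runx2 was tested, the summed ranges being 1985 to 2243, 1130.3 to 1211, 1906 to 2108 and 1127 to 1316. Runx2 was lower under 1 % O2 by 0.84 (log2) at rest and by 0.71 after stimulation. Of 4 adipocyte markers only Pparg was tested, with summed ranges of 83.7 to 115, 83.5 to 116, 108 to 135 and 105 to 151. Whether cells of these other types were present was not tested, nor was their part in the members' differences.

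The other genes of the pathway were taken in 8 lists by role, 90 genes in all, of which 76 were tested. The lists were chosen with earlier results of these data known, so their shares beside those of all genes are a description. Under 1 % O2 at rest 65 of them (85.5 %) passed, 18 higher and 47 lower, against 59.9 % of all genes, with a median of -0.22 (log2; -0.14 with the same total). After stimulation it was again 65, 16 higher and 49 lower, against 57.4 % of all genes, with a median of -0.18 (-0.11 with the same total). For stimulation 26 (34.2 %) passed at 5 % O2, 14 higher and 12 lower, against 21.4 % of all genes. At 1 % O2 37 (48.7 %) passed, 16 higher and 21 lower, against 22.3 %. The interaction passed for 14 (18.4 %), against 11.3 %. Without replicate 1 of 1 % CTRL these counts were 66, 65, 26, 43 and 20. Over all genes, stimulation at 1 % O2 gave 2047 higher and 1701 lower without that library, against 1668 and 1577 with it. The interaction gave 1280 higher and 1036 lower, against 855 and 790. With libraries rescaled to the same total, 20 were higher and 41 lower under 1 % O2 at rest and 19 and 40 after stimulation. Stimulation then gave 17 higher and 10 lower at 5 % O2 and 23 and 18 at 1 % O2. Of all 14541 genes, 5670 were then higher and 3378 lower at rest, and 5466 and 3182 after stimulation. For stimulation the counts of all genes were 1860 and 1133 at 5 % O2 and 2142 and 1293 at 1 % O2. Counts with the same total in the lists below stand beside these, not beside the shares of the main fit.

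BMP ligands other than Bmp4 were few, and 3 of 11 were tested. Gdf5, a ligand of joint and tendon development, rose by 0.53 ± 0.07 (log2, SE) under 1 % O2 at rest, from 286 ± 18.9 to 415 ± 48.2 normalized counts (SD, n = 6), and by 0.67 ± 0.07 with stimulation under 5 % O2, to 457 ± 46.7. With stimulation under 1 % O2 it differed by 0.08 (limma adjusted p = 0.464) and between O2 levels after stimulation by -0.05 (adjusted p = 0.539), neither of which passed, and its interaction of -0.58 ± 0.10 did (adjusted p = 0.000140). Gdf6, its close relative, fell in all 4 comparisons, with means of 126, 93.7, 77.2 and 48.2 in 5 % CTRL, 1 % CTRL, 5 % STIM and 1 % STIM. Bmp2 was listed at 0 in every library.

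Of 9 other TGF-beta and activin ligands 7 were tested, and 5 were lower and 1 higher under 1 % O2 at rest, against 30.5 and 29.4 % of all genes. After stimulation the counts were also 5 and 1, against 28.4 and 29.0 % of all genes. The genes differed, as Inhbb was among the 5 at rest and Tgfb3 among the 5 after stimulation. With the same total 4 were lower and 2 higher at rest, and 5 lower and 1 higher after stimulation. Inhba, the activin A subunit, had the largest difference, -1.22 ± 0.05 at rest (log2, SE, limma adjusted p = 2.67e-17), from 18941 to 8121 normalized counts. Tgfb2 fell by 0.23 ± 0.04, while Tgfb3 differed by 0.00 at rest (adjusted p = 0.918). Inhbb fell with stimulation by 0.52 ± 0.04 at 5 % and by 0.32 ± 0.04 at 1 % O2. Gdf15, a stress-induced cytokine, rose with stimulation at 5 % O2 by 1.21 ± 0.18, from 50.6 to 117 normalized counts. At 1 % O2 it rose by 1.45 ± 0.18, from 27.9 to 76.8, and the interaction did not pass (adjusted p = 0.612).

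Among receptors and coreceptors, 14 of 15 were tested, and 4 rose and 9 fell under 1 % O2 at rest, against 29.4 and 30.5 % of all genes. Acvr1b, an activin receptor of type I, rose by 1.31 ± 0.06 (log2, SE, limma adjusted p = 4.22e-19), from 220 to 545 normalized counts, and Tgfbr3 (betaglycan) by 0.60 ± 0.07. Bmpr1b fell by 0.75 ± 0.06. With stimulation 3 rose and 2 fell at 5 % O2, against 9.44 and 12.0 % of all genes. At 1 % O2 5 rose and 3 fell, against 11.5 and 10.8 %. With the same total 4 rose and 0 fell at 5 % O2, and 7 rose and 2 fell at 1 % O2. Rgmb, a BMP coreceptor, rose by 0.39 ± 0.04 and 0.69 ± 0.04 at 5 % and 1 % O2, and Acvr2a by 0.17 ± 0.04 and 0.48 ± 0.04. For both the response was larger at 1 % O2, by 0.30 ± 0.05 (adjusted p = 0.000199) and 0.31 ± 0.06 (adjusted p = 0.000873).

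All 6 SMADs that carry or share the signal were tested. Under 1 % O2 at rest Smad3, of the TGF-beta and activin branch, rose by 0.51 ± 0.03 (log2, SE, limma adjusted p = 4.44e-15), from 2091 ± 118 to 2966 ± 106 normalized counts (SD, n = 6), and 1 other (Smad9) rose. Of the BMP branch, Smad1 and Smad5 fell by 0.32 ± 0.04 and 0.27 ± 0.03, while Smad9 rose. The rise of Smad9 was 0.91 ± 0.14 (adjusted p = 5.13e-07), at a low level, from 34.8 to 66.2 normalized counts. After stimulation Smad9 was higher under 1 % O2 by 1.05 ± 0.14. In all 2 rose and 4 fell, against 29.4 and 30.5 % of all genes, and with the same total 2 rose and 3 fell. Stimulation changed 1 of the 6 at 5 % O2, Smad3, by 0.28 ± 0.03, where 21.4 % of all genes passed. At 1 % O2 it changed 3, Smad4, Smad5 and Smad1, each higher by 0.13 to 0.14, where 11.5 % of all genes were higher.

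Of 17 extracellular antagonists and latency proteins 15 were tested, and under 1 % O2 11 fell and 1 rose at rest, against 30.5 and 29.4 % of all genes, while 12 fell after stimulation, against 28.4 %. With the same total 8 fell and 2 rose at rest, and 9 fell and 2 rose after stimulation. Fst (follistatin), which binds activins and some BMPs, fell at rest by 1.14 ± 0.05 (log2, SE, limma adjusted p = 7.24e-17), from 5746 ± 520 to 2594 ± 89.8 normalized counts (SD, n = 6). Ltbp1, which holds latent TGF-beta in the matrix, fell by 0.55 ± 0.03. With stimulation at 5 % O2, where 21.4 % of all genes passed, 0 of the 15 passed by limma. Of the 15, 3 had an unadjusted p under 0.05, and edgeR, DESeq2 and voom called 0 as well. With the replicate block, with the compared groups alone and with the same total 1 passed. At 1 % O2 4 passed, 2 in each direction, where 22.3 % of all genes passed. With the same total 3 rose and 2 fell at 1 % O2.

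All 10 further intracellular inhibitors passed under 1 % O2 at rest, 3 higher and 7 lower, where 59.9 % of all genes passed, and after stimulation, where 57.4 % did, the counts were again 3 and 7. With the same total they were 3 and 6 at rest and 3 and 5 after stimulation. Tgif1, a corepressor of SMADs, fell by 1.01 ± 0.04 (log2, SE) at rest, from 2268 to 1127 normalized counts. Pmepa1, which keeps SMADs from receptors, fell by 0.86 ± 0.03, and Smurf1, a ubiquitin ligase for SMADs and receptors, by 0.70 ± 0.03. Stimulation raised Tgif1 by 0.47 ± 0.04 at 5 % O2 and by 0.58 ± 0.04 at 1 % O2. In this list 4 rose and 1 fell at 5 % O2, against 9.44 and 12.0 % of all genes. At 1 % O2 3 rose and 2 fell (5 and 2 with the same total), against 11.5 and 10.8 %.

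Of 14 targets of BMP or TGF-beta signals 13 were tested, and 8 fell and 3 rose under 1 % O2 at rest, against 30.5 and 29.4 % of all genes, with a median of -0.35 (log2). Ccn2, a matricellular protein, fell by 1.79 ± 0.06 (SE, limma adjusted p = 3.16e-17), from 47038 ± 3285 to 13594 ± 1099 normalized counts (SD, n = 6), and Thbs1, which activates latent TGF-beta, by 0.83 ± 0.03. Atoh8, a target of BMP receptors in other cells, rose by 1.26 ± 0.14. After stimulation 9 were lower and 3 higher under 1 % O2, against 28.4 and 29.0 % of all genes, with a median of -0.53. With the same total 8 were lower and 3 higher there. The response of Klf10 to stimulation differed between the O2 levels, with an interaction of -0.52 ± 0.05 (adjusted p = 2.13e-09). Snai2 rose with stimulation at both levels, by 0.88 ± 0.07 and 1.08 ± 0.07.

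**Figure D4:**
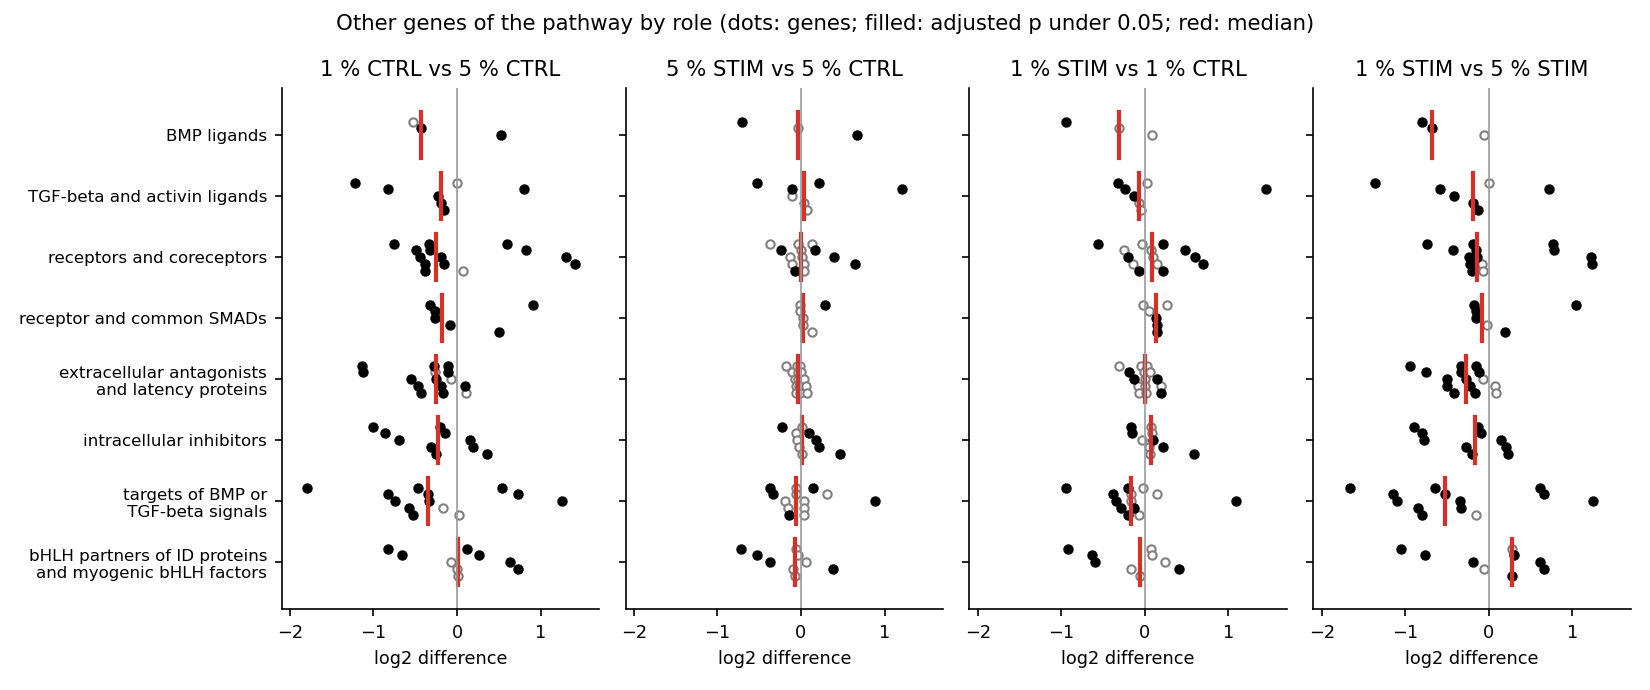
Log2 differences (horizontal axes) of the 76 tested genes of 8 role lists in 4 comparisons, where each dot is a gene, filled dots passed an adjusted p under 0.05 and red lines are list medians. At rest 7 of the 8 medians lie below 0 under 1 % O2, and with stimulation most dots lie near 0.

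The partners of the ID proteins were read last. Of 9 bHLH genes all were tested, and under 1 % O2 at rest 4 rose and 2 fell, against 29.4 and 30.5 % of all genes, with a median of 0.01 (log2). Myod1 fell by 0.83 ± 0.09 (SE, limma adjusted p = 7.83e-08), from 3524 ± 245 to 2001 ± 269 normalized counts (SD, n = 6), and Myog by 0.66 ± 0.04. Hey1, a repressor of the hairy family, rose by 0.72 ± 0.10. With stimulation Hes1, a target of Notch, fell by 0.71 ± 0.06 at 5 % O2 and by 0.92 ± 0.06 at 1 % O2, and Myog fell by 0.53 ± 0.04 and 0.64 ± 0.04. Myf5 rose with stimulation by 0.38 ± 0.07 at 5 % O2 and by 0.41 ± 0.07 at 1 % O2. The E proteins Tcf3, Tcf4 and Tcf12, the direct partners of ID proteins, had differences of 0.27, -0.07 and 0.12 at rest under 1 % O2. Those of Tcf3 and Tcf12 passed (limma adjusted p = 0.000239 and 0.00461), and that of Tcf4 did not (adjusted p = 0.0859).

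Of genes with a mean of at least 100 normalized counts, those whose log2 values followed a member most closely over the 24 libraries are given as a description, since the points share the 4 groups. For Id2 they were Cdc42ep2 (Pearson r = 0.975) and Plau (0.972), the urokinase gene, with means of 4903, 4464, 3251 and 2633 in 5 % CTRL, 1 % CTRL, 5 % STIM and 1 % STIM. For Skil they were Gcnt4 (0.986) and Abhd2 (0.983), and for Tgfb1 Hs6st1 (0.969) and Irx3 (0.966). Id1 went most with Fosl1 (0.924) and Ccdc86 (0.918), Smad7 with Flot1 (0.922) and Ehd1 (0.920), and Id3 with Polrmt and Alkbh4 (0.910 each). Bmp4 went with Nelfe (0.886) and Cntrob (0.876), and Smad6 with Lsm3 (0.860) and Polr2d (0.812).

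Promoter windows of 250 bases before the RefSeq start (GRCm38.p6) were held for 6 of the 10 members and were searched on both strands. The letters searched were ACGTG and GCGTG (the core of hypoxia response elements), GGCGCC (a GC-rich SMAD1/5 site), TGACG (part of the CRE), CANNTG (an E-box) and the CArG box. Of the Id3 window all 250 bases, and of the Id2 window 161, lie in annotated exons, so these were left out. The windows of Smad6, Bmp4 and Tgfb1 are shown, as these genes changed with O2 and their windows lie outside exons and hold ACGTG or GCGTG, which capitals mark on either strand.
Smad6, chr9:64022060-64022309, minus strand: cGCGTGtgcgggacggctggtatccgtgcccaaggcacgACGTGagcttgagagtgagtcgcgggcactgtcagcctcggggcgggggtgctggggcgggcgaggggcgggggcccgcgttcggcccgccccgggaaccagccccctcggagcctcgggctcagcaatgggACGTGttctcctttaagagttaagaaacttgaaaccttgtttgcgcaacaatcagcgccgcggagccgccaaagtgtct
Bmp4, chr14:46390670-46390919, minus strand: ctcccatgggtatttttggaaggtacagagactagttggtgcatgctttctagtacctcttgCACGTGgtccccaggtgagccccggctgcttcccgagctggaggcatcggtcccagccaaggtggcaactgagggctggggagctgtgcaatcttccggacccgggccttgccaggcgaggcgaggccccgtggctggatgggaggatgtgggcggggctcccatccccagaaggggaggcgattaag
Tgfb1, chr7:25686752-25687001, plus strand: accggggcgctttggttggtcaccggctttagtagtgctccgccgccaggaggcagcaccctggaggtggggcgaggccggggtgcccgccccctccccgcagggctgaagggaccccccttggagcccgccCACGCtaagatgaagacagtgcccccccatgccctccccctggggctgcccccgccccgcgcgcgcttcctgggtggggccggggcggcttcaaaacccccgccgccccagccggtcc
In Smad6, ACGTG begins 211 and 79 bases before the start and GCGTG 249 bases before it. In Bmp4, ACGTG occurs as a palindrome 188 to 183 bases before the start, which is read on both strands and is also 1 of 3 E-boxes of that window. In Tgfb1, GCGTG lies on the opposite strand, 118 bases before the start. Of the 32851 promoters searched, 16.6 % hold ACGTG, 28.2 % GCGTG and 38.6 % at least 1 of them, so such matches are common. The window of Id4 holds TGACG, found in 17.8 % of promoters, and GGCGCC, found in 9.6 %. CANNTG was in 66.2 % and the CArG box in 1.5 % of promoters, the last in none of the windows held. These matches are descriptions of sequence and were present both in members that rose and in members that fell.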

How the data were processed

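The study made stranded mRNA libraries of C2C12 myotubes in 24 cultures, sequenced them from a single end, aligned reads to GRCm38 with STAR (v2.5.4b) and quantified genes with RSEM (v1.3.0) at default parameters, per the submitters' processing notes and the paper's methods. The authors deposited the signal as gene counts scaled by DESeq2 size factors, without a filter on low values. A second deposited file with log2 fold changes, p-values and calls of the authors' own limma fit was not used. Whole reads were recovered from the smallest step of each library, within 0.01 of a whole number for 100 % of values.

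Genes at 10 or more in at least 6 libraries entered a single limma fit (v3.58.1, R v4.3.3, eBayes with trend and robust) of log2(normalized count + 1) over the 4 groups, without a block. Fold changes on that scale understate the change of low genes. Genes with a Benjamini-Hochberg adjusted p under 0.05 over all 14541 genes were called, and intervals are 95 % intervals of the fit. The script was tested on simulated data. Alternatives were a replicate block, a pseudocount of 10, testing without the filter, scaling all libraries to 1 total, fitting only the compared groups, an adjusted p under 0.01, leaving out replicate 1 of 1 % CTRL, and edgeR (v4.0.16, quasi-likelihood, TMM), DESeq2 (v1.42.0) and limma voom on whole reads. Counts of the role lists without that replicate and with the same total were added after seeing the data.

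The members, role lists, marker lists and motifs were chosen with earlier results of these data known. Besides the members, the text names up to 3 called genes of each role list and comparison with the largest difference, if the higher group averaged 100 or more, and the 2 genes most like each member. Bmp2, Smad9, Tcf3, Tcf4, Tcf12 and the marker genes named were added after their values were seen, as were Tgfb3 in both O2 comparisons and the 2 further values of Gdf5. Of the genes listed, 99.4 % were found in GENCODE M21. Promoters are from RefSeq. Values of 2 genes that this rule names are not reported here.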

Additional observations from a re-analysis of the deposited data

Results flagged for a closer look

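The response of Id2 to stimulation differed between the O2 levels by the interaction test. It was -0.86 (log2) at 5 % O2 and -1.24 at 1 % O2, a difference of -0.37 (limma adjusted p = 0.00111), and all 12 stimulated libraries lay below all unstimulated ones.

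The response of Smad7 also differed, from 0.30 at 5 % O2 to -0.18 at 1 % O2, an interaction of -0.47 (limma adjusted p = 0.000317), with all 6 libraries of 5 % STIM above all other libraries.

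Tgfb1 in replicate 1 of 1 % CTRL, at 481 normalized counts, lay apart from the other 5 libraries of its group, which were at 600 to 653. Its gap was 0.688 of the range of the group. The limit used for such gaps is passed by about 1 in 20 groups by chance, and 40 sets of a gene and a group were examined, of which 1 passed it.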

How the results depend on the processing

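Of the values of members under the alternatives other than the threshold of 0.01, 323 kept their direction and their side of the threshold, 20 passed where they had not, and 6 no longer passed. The 6 were Id1 in 1 % CTRL against 5 % CTRL under 2 alternatives and Smad7 in 1 % STIM against 1 % CTRL under 4. A further 3 turned sign, none of them past the threshold: Id2 in 1 % CTRL against 5 % CTRL was 0.031 (log2) with all libraries scaled to 1 total, and without replicate 1 of 1 % CTRL Tgfb1 in 1 % STIM against 1 % CTRL was -0.017 and the interaction of Id3 was -0.062. In 5 % STIM against 5 % CTRL, where 3 members passed, 5 passed with a pseudocount of 10 and with edgeR, and 6 with only the compared groups fitted, with DESeq2, with limma voom and without replicate 1 of 1 % CTRL. In 1 % STIM against 1 % CTRL 5 passed without that replicate, against 3. At an adjusted p under 0.01 the genes called fell from 3115 to 1944 in 5 % STIM against 5 % CTRL and from 1645 to 830 for the interaction. At that threshold Id1 in 1 % CTRL against 5 % CTRL (limma adjusted p = 0.0212) no longer passed. Nor did Smad7 in 1 % STIM against 1 % CTRL (limma adjusted p = 0.0369). The cause of these changes was not tested. With the replicate number as a block, 7, 3, 3, 7 and 2 members and 8730, 3190, 3320, 8350 and 1710 genes passed in the 5 comparisons, and the block changed no call of a member. The numbers did not pair the libraries: of 36 same-number pairs 3 correlated above 0.1 (r from -0.13 to 0.16), and 4 of 24 libraries were closest to one of their own number. Depth limits Id4 and Bambi, which have the lowest counts.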
